A study of Mus musculus with 2 samples.

Results

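Conventional dendritic cells without Ccr7 made up 136 of 11246 cell barcodes in a pair of single-cell RNA libraries from mouse MC38 tumours, 50 in the vector control library and 86 in the TMEM16F KO library. The members were chosen by measured counts of unique molecular identifiers (UMIs, each standing for 1 captured transcript). A member had at least 1000 UMIs in all, at least 2 UMIs over Flt3, Xcr1, Clec9a and Cd209a together, at most 1 of Ccr7, at most 2 of Siglech, at most 1 over the Cd3 chain genes, 0 of Cd79a, and fewer than 40 UMIs of C1qa, C1qb and C1qc per 10000. Members with at least 1 UMI of Xcr1 or Clec9a are called cDC1 here (58 cells, 23 in vector control and 35 in TMEM16F KO), and the other 78 cells (27 and 51) are called the remaining members.

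MC38 is a mouse colorectal cancer line, and TMEM16F is the phospholipid scramblase encoded by Ano6. Mice carried MC38 tumours with the genotype vector control or TMEM16F KO, received no treatment, and were sampled on day 21. By the design text the deletion was made in the grafted MC38 cells, and the dendritic cells described here are cells of the host. Each group was 1 library of tumour tissue. The number, sex and age of the mice behind it are not given in the labels, and neither is the number of MC38 clones.

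Conventional dendritic cells capture antigen in tissues, carry it to lymph nodes and prime T cells. The cDC1 branch depends on the transcription factors Irf8 and Batf3, takes up dead cells through Clec9a and presents their antigens to CD8 T cells, while the cDC2 branch presents mainly to CD4 T cells and is marked by C-type lectins such as Clec10a and by Sirpa. On maturation both branches switch on Ccr7, the receptor that guides them to lymph nodes, together with Fscn1, Ccl22 and costimulatory molecules.

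Of all barcodes, 10425 had at least 1000 UMIs (4770 in vector control, 5655 in TMEM16F KO), and the study itself states 10782 cells. The 2 libraries held 46338994 and 49777630 UMIs. With 1 library per group no difference between groups could be tested. Intervals below are exact 95% intervals (Poisson for levels, Clopper-Pearson for shares, conditional binomial for ratios) that cover counting error only, and neither the spread between cells nor that between mice. Levels are given as CPM, the share of a gene among the summed UMIs of the cells named, scaled to 1000000 UMIs. The libraries shared 10 barcode sequences, none of them among the members, and a doublet score with an expected doublet rate marked 0 members of vector control and 1 of TMEM16F KO.

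Depth differed between the subsets. The median cDC1 held 16543 UMIs in vector control and 13224 in TMEM16F KO, and the median remaining member held 8286 and 5867. Single members ranged from 1336 to 40887 UMIs in vector control and from 1023 to 40245 in TMEM16F KO. Summed over cells, cDC1 gave 386825 and 540654 UMIs and the remaining members 240290 and 367367.

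The genes that chose the members are given as a description. Cd209a, a C-type lectin, carried most of the selection: 28 of 50 vector control members and 54 of 86 TMEM16F KO members held a UMI of it, and 22 and 43 were chosen on Cd209a alone. Clec9a, the dead-cell receptor, was found in 22 and 31 members, Xcr1, the receptor for the chemokine Xcl1, in 11 and 18, and Flt3, the growth factor receptor that conventional dendritic cells depend on, in 14 and 29. Few cells mixed the branches, since Cd209a and an Xcr1 or Clec9a UMI met in 3 and 5 cells. Only Flt3 chose 2 members in each library.

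Members near the thresholds were common. Exactly 2 marker UMIs were held by 9 members in vector control and 25 in TMEM16F KO, and 57 and 63 further barcodes that met every other condition held exactly 1. Of the cDC1, 2 and 9 rested on a sole Xcr1 or Clec9a UMI. At the C1q limit, 2 and 5 members had 20 to 40 UMIs of C1q genes per 10000, and 2 and 0 barcodes lay just above it with 40 to 60. A sole Ccr7 UMI was found in 5 and 6 members, a sole Cd3 UMI in 14 and 25, and a Siglech UMI in 0 and 1.

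The rule uses raw counts, so deeper barcodes pass it more readily. After every barcode was thinned to 2000 UMIs, 23 of 4199 barcodes in vector control and 45 of 5137 in TMEM16F KO met it, with 4 and 10 cDC1 among them. In a shallow remaining member, lack of Xcr1 and Clec9a transcripts and failure to capture them cannot be told apart.

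The cDC1 carried the transcripts known for that branch although the rule had read only Xcr1 and Clec9a. Irf8, the factor that directs cDC1 development, stood at 752 CPM in cDC1 against 229 in the remaining members of vector control, a ratio of 3.29 (2.46 to 4.47), and at 1158 against 169 in TMEM16F KO, a ratio of 6.86 (5.28 to 9.06). Irf8 UMIs were found in 20 of 23 and 34 of 35 cDC1, and in 17 of 27 and 17 of 51 remaining members. In both libraries the cDC1 were the high group. Irf8 lies at chr8:120736358-120756694 (mm10, plus strand) and is protein coding.

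Across genes, a gene was called when its ratio was at least 2-fold the same way in both libraries and each interval excluded 1. Of 3550 genes with at least 20 UMIs over the members of each library, 69 (1.94%) were called higher in cDC1 and 52 (1.46%) lower. The median log2 ratio over all tested genes was 0.05 in vector control and 0.04 in TMEM16F KO. Of a list of 18 cDC1 genes, 14 could be tested, 12 were called higher and 0 lower, with medians of 1.64 and 1.98. Without the cell that held the most UMIs of each gene, 11 of the 12 were still called and Batf3 was not, and over all genes 40 were called higher and 25 lower. This top cell was, here and below, left out only of the group with the higher level of the gene. Within a library, 6.79% of genes were higher and 3.29% lower in vector control alone, and 6.52% and 6.31% in TMEM16F KO alone.

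**Figure D1:**
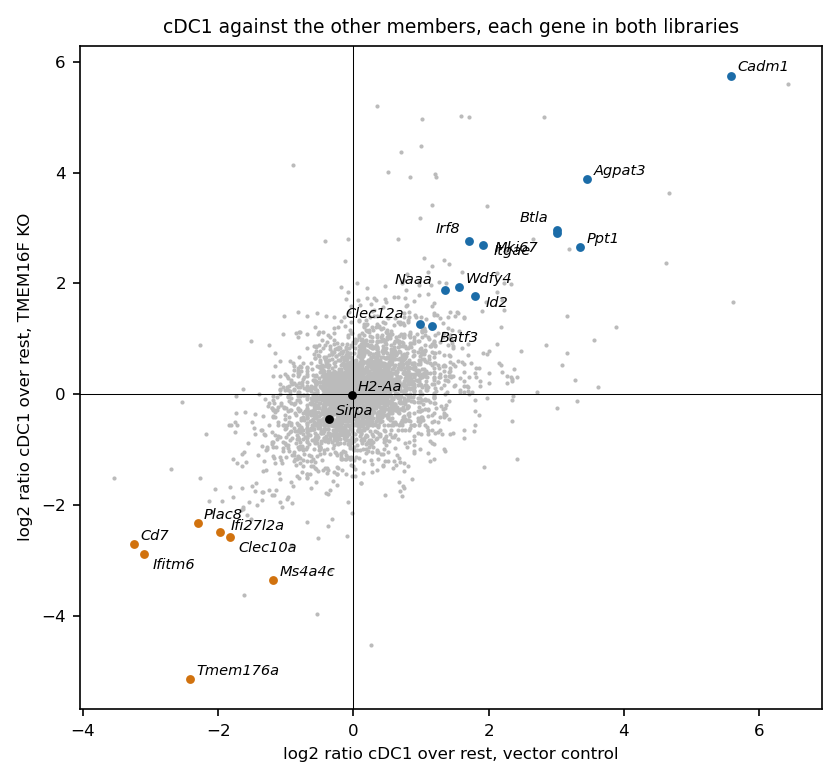
Log2 ratio of cDC1 over the remaining members for each gene tested in both libraries, vector control on the x axis and TMEM16F KO on the y axis; genes of the cDC1 and cDC2 lists and other named genes are marked. The cDC1 genes lie in the upper right, and Clec10a, Plac8 and Ifi27l2a in the lower left.

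Other transcription factors of the branch were mixed. Batf3, which pairs with Irf8 on DNA, had 124 CPM in cDC1 against 54.1 in vector control and 163 against 68.1 in TMEM16F KO, ratios of 2.29 (1.22 to 4.61) and 2.39 (1.52 to 3.89). Id2, the inhibitor of E proteins needed for cDC1, had 845 against 241 CPM and 821 against 240 CPM, ratios of 3.50 and 3.43. Nfil3, which acts before Batf3 in development, was not called, with ratios of 0.715 and 0.560. Cbfa2t3, a corepressor that supports Irf8 in progenitors, passed in vector control alone, with ratios of 2.13 and 1.27.

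Over all genes, 1.94% were called higher in cDC1 and 1.46% lower. Of 11 genes of MHC class I presentation and cross-presentation tested, 1 was called higher (Wdfy4, also in the cDC1 list) and 1 lower. The lower one was Cybb, a subunit of the phagocyte oxidase, 2.10-fold (1.18 to 3.79) and 2.38-fold (1.57 to 3.64) lower, and it was not called without the top cell. Wdfy4, which cross-presentation of dead-cell antigens needs, had 264 CPM in cDC1 against 87.4 in vector control and 233 against 59.9 in TMEM16F KO, ratios of 3.02 (1.87 to 5.08) and 3.89 (2.46 to 6.43). Naaa, a lysosomal amidase, had 788 against 308 and 845 against 229 CPM, and was found in 23 of 23 and 33 of 35 cDC1. Ppt1, a lysosomal thioesterase, was 11.2-fold and 6.44-fold higher. These genes were found in some remaining members too, Naaa in 18 of 27 and 27 of 51.

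Cadm1, an adhesion molecule of cDC1 (chr9:47530173-47857637, plus strand), was found in cDC1 only, but most cDC1 held no UMI of it. It had 38 UMIs in 9 of 23 cDC1 of vector control and 39 in 11 of 35 cDC1 of TMEM16F KO. The remaining members of both held 0, which makes it at least 7.87-fold and 8.83-fold higher against a floor of 3 counts over the group. Itgae, the CD103 integrin chain that marks tissue cDC1, was 4.04-fold (1.70 to 11.7) and 7.07-fold (2.84 to 22.7) higher. Cd24a, a surface glycoprotein, had 463 against 191 and 316 against 76.2 CPM. Rab7b, a late endosome GTPase, was 11.2-fold (2.88 to 95.9) and 6.50-fold higher, and Gcsam was at least 4.14-fold higher in vector control, with 0 UMIs in the remaining members, and 15.3-fold (3.99 to 130) in TMEM16F KO.

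Outside that list, Btla, an inhibitory receptor, was 9.94-fold (2.54 to 85.6) and 8.66-fold (3.18 to 33.0) higher in cDC1. Agpat3, an acyltransferase of phospholipid synthesis, was 16.2-fold and 21.7-fold higher over 1 UMI in the remaining members of each library, with intervals of 2.65 to 662 and 3.63 to 885. Ffar4, a fatty acid receptor, was 7.25-fold (2.28 to 36.8) and 8.49-fold (2.12 to 74.0) higher, and Serpinb6b, an intracellular serpin, 36.6-fold (6.33 to 1472) and 5.55-fold (2.37 to 15.9). Ifi205, from an interferon-inducible family with closely related copies whose reads may be shared, was 2.94-fold and 2.78-fold higher. The chemokine Cxcl16, the ligand of Cxcr6, was 2.21-fold and 2.01-fold higher, and was not called without the cell that held the most of its UMIs.

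Some cDC1 genes rested on few UMIs or few cells. Tlr3, the receptor for double-stranded RNA, had 8 UMIs in cDC1 against 2 in vector control, under the minimum, and 49.9 CPM against 2.72 in TMEM16F KO, a ratio of 18.3 (3.02 to 751) over 1 UMI. Il12b, a subunit of the cytokine IL-12, was seen in cDC1 only, but in 2 cells of vector control, 1 of which held 98.6% of its 69 UMIs, and in 1 cell of TMEM16F KO with 35 UMIs. It was called higher in cDC1, but not without those top cells. Havcr2, an inhibitory receptor that cDC1 of tumours can carry, had ratios of 1.30 and 1.16 and was not called.

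Cell by cell the subsets overlapped little on the summed cDC1 list. Its median was 46.7 UMIs per 10000 in cDC1 and 10.2 in the remaining members of vector control, and 54.0 and 11.7 in TMEM16F KO. All 23 cDC1 of vector control and 34 of 35 in TMEM16F KO lay above the median of the remaining members, and 1 of 27 and 1 of 51 remaining members lay above the median of cDC1. In 11 and 5 cDC1 the list was above every remaining member of the library. The ranges still met: the lowest cDC1 had 10.5 and 9.66, and the highest remaining member 49.6 and 94.3.

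**Figure D2:**
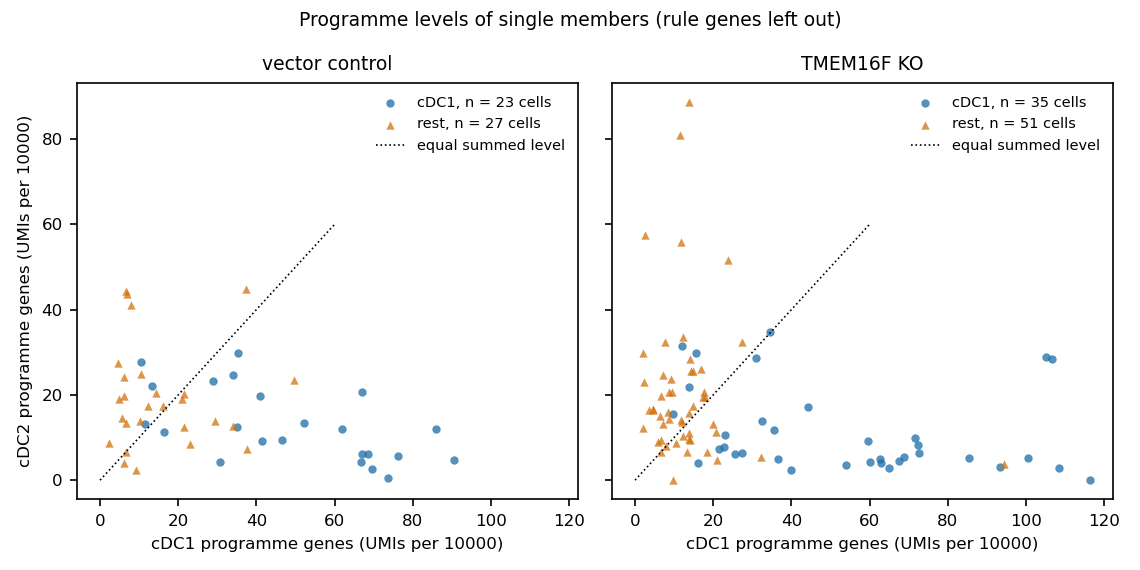
Summed UMIs per 10000 of the cDC1 list on the x axis and the cDC2 list on the y axis, each point 1 member cell. Each library has its own panel, and the dotted line marks equal summed levels. The cDC1 lie higher than the remaining members on the cDC1 list (medians 46.7 and 54.0 against 10.2 and 11.7). On the cDC2 list the median of cDC1 is the lower one in both libraries. There, 7 of 23 cDC1 in vector control and 8 of 35 in TMEM16F KO lie above the median of the remaining members.

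The remaining members were set apart by lectins and by genes shared with monocytes. Clec10a, a galactose-type lectin (chr11:70156197-70170834, plus strand), had 449 CPM in the remaining members against 127 in cDC1 of vector control, 3.55-fold (2.51 to 5.08) lower in cDC1, and 479 against 79.5 in TMEM16F KO, 6.02-fold (4.29 to 8.62) lower. Clec10a UMIs were in 18 of 27 and 30 of 51 remaining members and in 9 of 23 and 16 of 35 cDC1. Mgl2, its close paralogue with which reads may be shared, had 466 against 396 CPM in vector control, a ratio of cDC1 over the others of 0.849, and 716 against 229 in TMEM16F KO, 3.12-fold lower in cDC1. So Mgl2 was not called in both libraries.

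Of the 15 genes listed for cDC2, 11 could be tested, 2 were called lower in cDC1 (Clec10a and Cd7) and 1 higher (Clec12a). Over all genes, 1.46% were called lower and 1.94% higher. Cd7, a surface molecule also of lymphocytes, was 10.3-fold and 6.77-fold lower in cDC1, and 1 remaining member held 50% of its UMIs in vector control. Clec12a, a myeloid inhibitory lectin, was 2.03-fold and 2.46-fold higher in cDC1, and was not called without the top cell. Sirpa, the receptor for CD47 and a defining cDC2 marker, was not called, with 49.1 against 62.4 CPM and 48.1 against 65.3 CPM. Irf4, a cDC2 factor, had 7 and 2 UMIs in the remaining members, Klf4 had ratios of 0.675 and 0.552, and Itgam of 0.966 and 0.560. The remaining members are therefore not given a branch name here.

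The monocyte genes were lower in cDC1, where 1.46% of all genes were called lower. Plac8 stood at 1090 CPM in the remaining members against 220 in cDC1 of vector control and at 1557 against 311 in TMEM16F KO, 4.96-fold and 5.01-fold lower in cDC1. Ms4a4c was 2.28-fold and 10.3-fold lower and Ly6c2 12.9-fold (4.57 to 50.1) and 2.87-fold (1.96 to 4.27) lower, which makes 3 of 5 tested monocyte markers called, with and without the top cell of each. Their summed level was 1998 and 2924 CPM in the remaining members, 636 and 599 in cDC1, 3065 and 2843 in monocytic phagocytes, and 1017 and 1231 in T cells of the same libraries. The remaining members lay between cDC1 and monocytic phagocytes in vector control and slightly above monocytic phagocytes in TMEM16F KO. The list holds Ccr2 and Ly6c2, which also chose the monocytic phagocytes. The level of that group was therefore partly set by its rule, and the order against it is given as a description only. The cDC1 lay below the T cells in both libraries.

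Other genes lower in cDC1 included Ifitm6, an interferon-induced membrane protein of monocytes (8.94-fold and 7.69-fold), Tmem176a (5.63-fold, and 43.4-fold with an interval of 11.5 to 367), and Bcl3, an NF-kB regulator (4.39-fold and 4.42-fold). Ifi27l2a, induced by interferons, had 261 CPM in cDC1 against 1028 in vector control and 183 against 1026 in TMEM16F KO. Ccl9, a chemokine that attracts myeloid cells, was 4.02-fold and 3.89-fold lower, Mndal 4.21-fold and 3.30-fold, and Dok2, a signalling adaptor, 3.60-fold and 3.26-fold. Bcl11a, a factor of dendritic cell development, was 2.62-fold (1.01 to 7.28) and 3.86-fold (1.64 to 10.1) lower.

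Antigen presentation through MHC class II did not separate the subsets at 2-fold. Of 11 genes tested, 0 were called in both libraries. H2-Aa, a class II chain, had 9128 CPM in cDC1 against 9310 in vector control, a ratio of 0.981 (0.930 to 1.03), and a ratio of 0.995 (0.954 to 1.04) in TMEM16F KO. Summed over the list, the class II genes reached 45897 and 46307 CPM in cDC1, 47101 and 48045 in the remaining members, 43506 and 43632 in Ccr7 dendritic cells, 27353 and 27361 in monocytic phagocytes, and 5444 and 7832 in T cells. In these sums both member subsets thus stood above monocytic phagocytes, but not every member did. On the per-cell scale used above for the cDC1 list, the median was 450 and 510 in cDC1. It was 456 and 447 in the remaining members, and 195 and 201 in monocytic phagocytes. The lowest cDC1 had 142 and 30.3, and the lowest remaining member 24.3 and 24.9.

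Of 10 general dendritic cell genes tested, 2 were called higher in cDC1 (Btla and Cd24a) and 1 lower (Bcl11a), and Bcl11a was not called without the top cell. The others were not called, beside 1.94% of all genes called higher and 1.46% lower. Zbtb46, a factor restricted to conventional dendritic cells among myeloid cells, had ratios of cDC1 over the others of 1.24 (0.530 to 3.14) and 0.981 (0.388 to 2.60), Itgax, the CD11c integrin chain, 1.02 and 1.97, and Ciita, the class II transactivator, 1.33 and 1.13. Kit, a growth factor receptor, passed in vector control alone (2.69 and 1.47). Costimulation and maturation genes had 0 of 13 called.

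Cell cycle transcripts were higher in cDC1, where 1.94% of all genes were called higher. Of 12 listed genes tested, all 12 were higher in each library and 7 were called, with medians of 1.17 and 3.04, and 3 (Mki67, Pclaf and Cdca8) stayed called without the top cell of each gene. Mki67, the proliferation antigen, had 49.1 CPM against 4.16 in vector control, a ratio of 11.8 (1.88 to 490), and 49.9 against 5.44 in TMEM16F KO, a ratio of 9.17 (2.31 to 79.6). Mcm3, a helicase subunit of replication, was 5.28-fold and 6.52-fold higher.

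At least 3 cell cycle genes were detected in 20 of 23 and 24 of 35 cDC1, and in 7 of 27 and 13 of 51 remaining members. After thinning to 2000 UMIs, the share was 30.4% (7 of 23) and 26.5% (9 of 34) of cDC1, 3.85% (1 of 26) and 2.04% (1 of 49) of remaining members, and 27.7% and 18.4% of T cells. The gap was still present with cell cycle genes counted at equal depth, in subsets that had been assigned before thinning. Deeper barcodes are assigned to cDC1 more readily, so the part of depth in the gap was not tested. In vector control, 1 remaining member held all 21 Pclaf UMIs of its group.

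Interferon response genes were lower in cDC1, to a degree that rested on few cells. Of 13 type I interferon genes tested, 3 were called lower in cDC1 (medians -0.53 in vector control and -1.41 in TMEM16F KO). Without the top cell of each gene, 0 were called. Over all genes, 1.46% were called lower. Ifit1, an antiviral protein, was 4.48-fold and 3.82-fold lower, with 56.4% and 37.1% of the UMIs of the remaining members in 1 cell. Rsad2, another antiviral enzyme, was 3.51-fold and 3.64-fold lower, with 79.2% in 1 cell of vector control. Summed per cell, the list had medians of 11.4 and 9.77 UMIs per 10000 in cDC1 and 18.7 and 26.8 in the remaining members.

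The members were set beside Ccr7 dendritic cells, which met the same rule with at least 2 Ccr7 UMIs (20 cells in vector control, 32 in TMEM16F KO). Members made up 71.4% (59.4 to 81.6) and 72.9% (63.9 to 80.7) of the 2 populations together. Of 4469 genes tested, 52 (1.16%) were called higher in the members and 147 (3.29%) lower. Of these, 25 and 79 remained called without the top cell of each gene.

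Maturation genes formed the clearest group among the lower genes. Fscn1, the actin bundler of mature dendritic cells, had 1 UMI in the members of each library, 1.59 CPM against 1203 in vector control and 1.10 against 642 in TMEM16F KO. Ccl22, a ligand of Ccr4, was 20.4-fold (11.2 to 40.8) and 39.4-fold (20.2 to 87.7) lower in the members, and Ccl5, a chemokine that attracts T cells, 12.9-fold and 10.6-fold lower. Of 8 markers of mature dendritic cells, 8 were called lower, with and without the top cell of each, and of 18 costimulation and maturation genes tested 13 were called lower, 10 without the top cell.

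Among those genes, Socs2, a cytokine signalling inhibitor, was 25.1-fold and 12.0-fold lower, and Il4i1, an amino acid oxidase, 17.2-fold lower in vector control and, at 0 UMIs against 79, at least 58.3-fold lower in TMEM16F KO. Mreg was 173-fold (30.1 to 6929) and 38.8-fold (9.96 to 333) lower over 1 and 2 UMIs, Cacnb3, a calcium channel subunit, had 1 and 0 UMIs against 41 and 44, and Nudt17 had 1 and 0 against 36 and 21. Apol7c was at 0 against 26 UMIs, all in 1 cell, and 27 UMIs. Relb, the NF-kB subunit of mature dendritic cells, was 8.01-fold and 3.72-fold lower.

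Costimulatory and inhibitory ligands differed less. Cd40 was 4.49-fold and 2.54-fold lower in the members, Cd80 2.49-fold and 2.16-fold, and Pdcd1lg2, the inhibitory ligand PD-L2, 2.56-fold and 3.05-fold. Cd83 (2.68-fold and 1.81-fold) and Cd274, the ligand PD-L1 (4.25-fold and 1.96-fold), missed the 2-fold limit in TMEM16F KO, and Cd86 was 1.65-fold and 1.30-fold lower. The chemokines Ccl17, a further Ccr4 ligand, and Cxcl16 were 2.07-fold and 3.57-fold, and 2.44-fold and 2.34-fold, lower. Cd40, Cd80 and Ccl17 were not called without the top cell of each.

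Higher in the members were Clec10a (250 CPM against 49.8 and 241 against 51.2) and Gng12, a G protein subunit (4.30-fold and 3.47-fold). Rgs18, a regulator of G protein signalling, was 6.24-fold (1.58 to 53.9) and 5.87-fold (1.47 to 51.0) higher, and Cdh1, the adhesion molecule E-cadherin, 7.91-fold (2.04 to 67.6) and 4.21-fold (1.30 to 21.7). Agpat3 and Npepl1 had 0 UMIs in Ccr7 dendritic cells of vector control, at least 3.74-fold and 3.19-fold higher, and were 3.72-fold and 3.50-fold higher in TMEM16F KO. H2-DMb1, which helps load peptide on class II molecules, was 2.60-fold and 2.05-fold higher, and not called without the top cell. Of the cDC1 list, 8 genes were higher and 5 of them without the top cell, among them Wdfy4 (10.2-fold and 3.04-fold) and Naaa (3.36-fold and 2.54-fold). Irf8 itself had ratios of 0.935 and 1.19 and was not called.

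**Figure D3:**
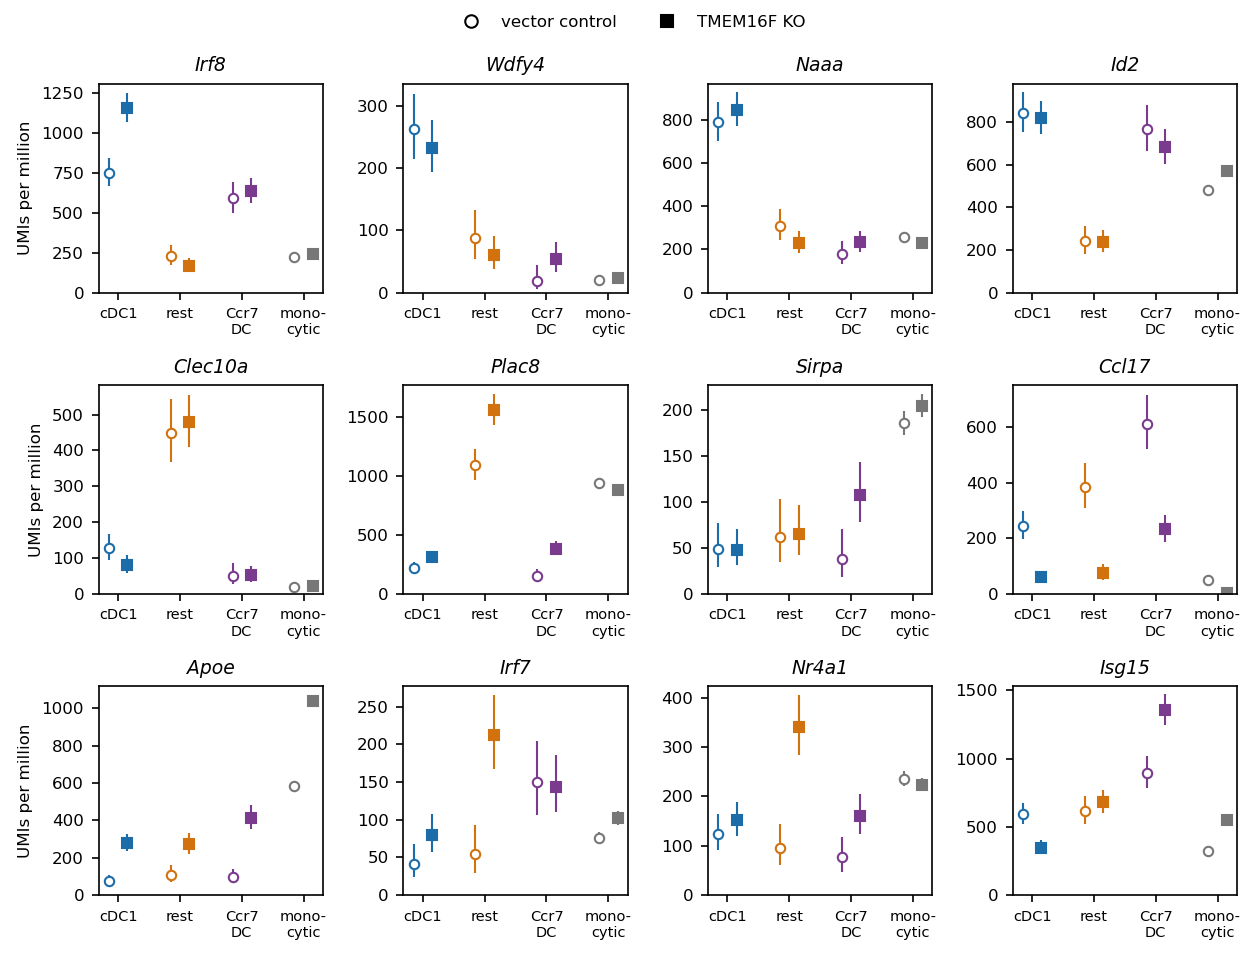
Levels in CPM, on linear axes, of 12 genes in cDC1, the remaining members, Ccr7 dendritic cells and monocytic phagocytes. Open circles are vector control and filled squares TMEM16F KO, with 95% Poisson intervals that cover counting error only. Irf8 is high in cDC1 (752 and 1158 CPM) and Clec10a in the remaining members (449 and 479 CPM).

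Monocytic phagocytes served as the other comparison because the remaining members carried monocyte genes. They had none of the 4 marker genes, at least 2 UMIs of Ccr2 and Ly6c2 together and at least 5 of Lyz2, and otherwise met the same limits (421 cells in vector control, 527 in TMEM16F KO). Those 3 genes and the markers define the groups and are no finding. Of 9035 genes, 245 (2.71%) were called higher in all members than in monocytic phagocytes and 493 (5.46%) lower. The genes highest by rule were Il12b (from the few cells named above), Septin3 (29 and 65 UMIs against 0 and 2), Btla, Gcsam, Ffar4 and Itgae. The lowest were Ccl24 (1 UMI in each library against 399 and 229), Cxcl3 (1 and 6 against 491 and 888), Vcan (1 and 2 against 100 and 165), Fam20c (1 and 0 against 97 and 51), Arg1 (17.3-fold and 10.4-fold lower) and Chil3 (11-fold and 10.3-fold lower). Ccl24 and Cxcl3 are chemokines, Arg1 is the arginase of suppressive myeloid cells, and Vcan and Chil3 mark monocytes.

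The remaining members taken alone also differed from monocytic phagocytes. This comparison was added after values were seen. Of 8775 genes, 116 (1.32%) were called higher and 295 (3.36%) lower. Clec10a was 23.3-fold (17.3 to 31.4) and 21.1-fold (16.6 to 26.9) higher, Bcl11a 22.7-fold and 25.8-fold, Cd7 34.9-fold and 7.33-fold, and Mgl2 2.50-fold and 5.56-fold. The class II accessory genes H2-Oa and H2-Ob, which tune peptide loading, were 34.9-fold and 16.3-fold, and 11.8-fold and 7.45-fold, higher, and H2-DMb2 8.94-fold and 8.15-fold. These are genes of dendritic cells and B cells. Of the B cell markers, 2 could be tested, and Ighm, the heavy chain of immunoglobulin M, was called higher, 4.28-fold (2.14 to 7.96) and 3.81-fold (2.43 to 5.80), with 13 and 29 UMIs in 9 of 27 and 11 of 51 remaining members. Ms4a1, another B cell marker, was at 0 in all members. The part of B cell RNA in these differences was not tested.

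Batf3 was 4.28-fold and 9.67-fold higher in the remaining members than in monocytic phagocytes, and Wdfy4 4.26-fold and 2.64-fold. Irf8 was not called (1.03 and 0.702). Zbtb46 had 9 UMIs in the remaining members of each library, 37.5 and 24.5 CPM, against 2 and 11 UMIs in all monocytic phagocytes, 0.477 and 2.21 CPM, with too few UMIs in vector control for a call. Plac8 was 1.16-fold and 1.77-fold higher and not called.

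Genes lower in the remaining members than in monocytic phagocytes included several of monocytes and macrophages. Among them were Spp1, the secreted protein osteopontin (16.2-fold and 6.02-fold), Arg1 (27.9-fold and 11.5-fold) and Fn1, fibronectin (12.0-fold and 4.23-fold). Chil3 (12.7-fold, 3.48 to 105, and 5.82-fold) and Csf1r, the receptor for the macrophage growth factor (4.46-fold and 2.57-fold), were lower too. Of 8 monocyte markers tested, 5 were called lower, with Ccr2 of the rule among them, and 1 higher (Ms4a4c). Of 10 macrophage markers, 6 were called lower and 0 higher. Genes of other lists, such as Id2, Rab7b, Cxcl16 and Ccl5, were also called lower. Sirpa was 2.98-fold and 3.13-fold lower, Itgam 6.27-fold and 5.38-fold, and Zeb2, a cDC2 and monocyte factor, 3.84-fold and 2.11-fold. So 3 of the 12 cDC2 genes tested were called higher than in monocytic phagocytes and 4 lower.

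The cDC1 were compared with monocytic phagocytes in the same way. Of 8922 genes, 264 (2.96%) were called higher and 453 (5.08%) lower. Zbtb46 was 97.6-fold (23.4 to 867) and 10.9-fold (4.49 to 26.8) higher, Kit 70.5-fold and 11.6-fold, Dpp4, a surface peptidase of cDC1, 16.7-fold and 23.0-fold, and Tlr3 6.20-fold and 12.4-fold. Ciita was 2.92-fold and 2.19-fold higher, and Psmb9, an immunoproteasome subunit, 3.33-fold and 2.79-fold. Timd4, a phosphatidylserine receptor, was 173-fold (44.3 to 1494) and 35.3-fold (14.0 to 106) higher, with 62.5% of the vector control UMIs in 1 of 5 cDC1.

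Markers of other cell types in the members were at the following summed levels, vector control before TMEM16F KO. T cell genes reached 15.5 and 55.5 CPM in cDC1 and 25 and 76.2 in the remaining members, B cell genes 85.3 and 51.8, and 87.4 and 95.3, and neutrophil genes 25.9 and 57.3, and 0 and 10.9. NK genes reached 18.1 and 226 CPM in cDC1, the latter from 1 cell with 96.4% of the 83 Gzma UMIs, and 16.6 and 46.3 in the remaining members. Stromal genes stood at 10.3 and 3.70, and at 20.8 and 171. Their part in the differences above was not tested.

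In abundance, the members were 1.05% (0.779 to 1.38) of the barcodes of vector control and 1.52% (1.22 to 1.87) of those of TMEM16F KO, a ratio of 1.45 (1.01 to 2.10). The cDC1 were 0.482% and 0.619%, a ratio of 1.28 (0.737 to 2.28), and the remaining members 0.566% and 0.902%, a ratio of 1.59 (0.981 to 2.64). Ccr7 dendritic cells were 0.419% and 0.566%, and monocytic phagocytes 8.83% and 9.32%, a ratio of 1.06 (0.927 to 1.2). The cDC1 share of the members was 46.0% (31.8 to 60.7) and 40.7% (30.2 to 51.8), which overlap. After thinning to 2000 UMIs the order turned, with 4 of 23 members (17.4%) in vector control and 10 of 45 (22.2%) in TMEM16F KO. The median depth of the members was 10760.5 UMIs in vector control and 7349.5 in TMEM16F KO. A share of all barcodes depends also on the number of other cells captured.

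Within cDC1, the identity genes lay near each other in the 2 libraries. Of 16 cDC1 genes tested between libraries, 8 were higher and 8 lower in TMEM16F KO, 1 was called (Tlr3) and the median log2 ratio was 0.03. Irf8 had 1158 CPM in TMEM16F KO against 752, a ratio of 1.54 (1.34 to 1.77), Batf3 a ratio of 1.31 (0.913 to 1.91), Naaa 1.07 (0.925 to 1.24) and Id2 0.971 (0.840 to 1.12). Tlr3 had 27 UMIs against 8, a ratio of 2.41 (1.07 to 6.15), and was not called without its top cell. Over all 4793 genes tested, 147 (3.07%) were called higher and 132 (2.75%) lower in TMEM16F KO, and 47 and 46 without the top cell of each gene. The median over all genes was -0.02.

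The genes named by rule as higher in TMEM16F KO cDC1 were led by H1f5, a linker histone of dividing cells, at 229 CPM against 59.5, a ratio of 3.86 (2.46 to 6.31), found in 12 of 35 and 4 of 23 cells. Cd81, a tetraspanin, had 99.9 CPM against 20.7, a ratio of 4.83 (2.28 to 11.8), and AW112010, an RNA induced by interferon gamma, 734 against 284, a ratio of 2.58 (2.09 to 3.22). Both were called without their top cell, at 4.27 and 2.06. Rgs1, a regulator of chemokine receptor signalling, had 542 CPM against 243, a ratio of 2.23, and reached 2.00 without its top cell, where it was not called. With cDC1 limited to at least 3 marker UMIs, H1f5 (3.30), Cd81 (4.60) and Rgs1 (2.83) were called and AW112010 (1.86) was not.

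The histone H2bc4 (2.93-fold), the nuclear RNA Neat1 (2.79-fold) and the lectin Clec4n (2.29-fold) were also in that set. With at least 3 marker UMIs, the log2 ratio of Clec4n was -0.07, so its direction rested on the cDC1 with 2 marker UMIs. Of the listed genes, the chemokines Ccl3 (2.53-fold) and Ccl6 (3.46-fold), the costimulatory receptor Cd40 (2.45-fold), Relb (2.29-fold) and Sec22b, a trafficking protein of cross-presentation (2.56-fold), were higher. Sec22b was the sole gene of these 5 called without its top cell, where Cd40 had a ratio of 1.36 and Ccl6 of 1.92, and with at least 3 marker UMIs Ccl6 had 1.14. Ccl6 had 429 CPM against 124 in cDC1 and 326 against 206 in T cells, and was thus below the T cell level in vector control. Of 12 chemokines tested in cDC1, 4 were higher and 8 lower, with 2 called higher, 1 lower (Ccl17) and a median of -0.29. With at least 3 marker UMIs, 8 of 10 were lower and 5 called lower, with a median of -1.02. Of 7 cytokines, 2 were called lower (Il12b and Il1a), but Il12b was called higher without its top cell. Over all genes, 3.07% were called higher and 2.75% lower.

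Lower in TMEM16F KO cDC1 were the heat shock genes Hspa1a, at 216 CPM against 755, 3.49-fold (2.81 to 4.36), and Hspa1b (3.19-fold), near-identical copies that may share reads, with their partner Dnajb1 (2.64-fold). Hspa1a stood at 196 and 416 CPM in T cells of TMEM16F KO and vector control. Others were Kynu, an enzyme of tryptophan breakdown (4.35-fold, 1.99 to 10.5), Ms4a4c (70.3 against 235 CPM, 3.35-fold), Qpct, which cyclises the ends of chemokines (107 against 264 CPM, 2.46-fold), Hmgcs1, of sterol synthesis (2.93-fold), and Cyb561a3 (3.49-fold). Ly6c2, of the same monocyte list as Ms4a4c, was called higher in TMEM16F KO cDC1, at 7.51-fold (2.73 to 28.8). It was also called without its top cell (3.43) and with at least 3 marker UMIs (6.54). Of 5 monocyte markers tested, 2 were higher and 3 lower, with 1 called in each direction. H2-DMb2 was 2.07-fold lower and the sole class II gene called, while H2-Aa had a ratio of 1.11 (1.06 to 1.15).

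Ccl17, the Ccr4 ligand that attracts regulatory and helper T cells, was lower in TMEM16F KO in both subsets. In cDC1 it had 94 UMIs in 11 of 23 cells of vector control and 32 UMIs in 6 of 35 cells of TMEM16F KO, 243 against 59.2 CPM, 4.11-fold (2.72 to 6.34) lower. In the remaining members it had 383 CPM in 9 of 27 cells against 73.5 in 9 of 51, 5.21-fold (3.36 to 8.32) lower. Without the top cell it was 2.67-fold and 3.50-fold lower, and with at least 3 marker UMIs 4.5-fold and 6.45-fold. Ccr7 dendritic cells had 613 and 232 CPM, monocytic phagocytes 50.8 and 3.42, and T cells 21.6 and 17.3. In each of the 4 myeloid groups the TMEM16F KO level was the lower one. Ccl17 lies at chr8:94810453-94812036 (mm10, plus strand).

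Within the remaining members, 182 of 3506 genes (5.19%) were called higher in TMEM16F KO and 71 (2.03%) lower, and 85 and 28 without the top cell of each gene. Their leading genes were not called: Clec10a had a ratio of 1.07 (0.834 to 1.37), Mgl2 1.54 and Plac8 1.43. Of 11 cDC2 genes tested, 1 was called (Zeb2, 2.59-fold higher), and 0 without the top cell. Cd24a was 2.51-fold lower, with 47.8% of its vector control UMIs in 1 cell.

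Nr4a1, an immediate early nuclear receptor, had 340 CPM in the remaining members of TMEM16F KO against 95.7, a ratio of 3.55 (2.27 to 5.81), in 37 of 51 and 13 of 27 cells. Dusp1, a phosphatase induced by stress, had 1026 against 404, a ratio of 2.54 (2.03 to 3.21). Without the top cell they reached 3.48 and 2.17, and with at least 3 marker UMIs 3.76 and 1.81, so Dusp1 was then not called. Both belong to genes that tissue dissociation can induce. Of 13 such genes tested, 11 were higher in TMEM16F KO, 3 called (Dusp1, Egr1 and Nr4a1), and 1 was called lower (Hspa1a, not called without its top cell). Their median was 0.82, and 5.19% of all genes were called higher and 2.03% lower. In cDC1, 8 of 13 were higher, 0 were called higher and 2 lower, beside 2.75% of all genes called lower. T cells had 286 CPM of Nr4a1 in TMEM16F KO and 222 in vector control.

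Irf7, the factor that amplifies interferon responses (chr7:141262706-141266481, minus strand), had 212 CPM in the remaining members of TMEM16F KO against 54.1, a ratio of 3.92 (2.17 to 7.70), in 31 of 51 and 9 of 27 cells. Ifi47, an interferon-inducible GTPase, had 226 against 70.7, a ratio of 3.19 (1.88 to 5.74). Both were called without their top cell, at 3.17 and 2.97, and with at least 3 marker UMIs, at 3.70 and 3.26. T cells had 54.0 and 35.4 CPM of Irf7 and 141 and 97.8 of Ifi47, so the vector control level of Ifi47 in the remaining members was below that of T cells. In cDC1 the ratios were 1.92 (1.06 to 3.66) for Irf7 and 0.529 (0.329 to 0.842) for Ifi47, and neither was called.

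As a group, 16 of 16 type I interferon genes tested were higher in the remaining members of TMEM16F KO. Of them 7 were called, beside 5.19% of all genes called higher, and the median log2 ratio was 0.91 against 0.02 over all genes. Without the top cell of each gene, 15 of 16 were higher, 3 were called (Ifi209, Ifi47 and Irf7) and the median was 0.65, and with at least 3 marker UMIs 12 of 14 were higher, 5 called, with a median of 0.59. The other called genes were Ifit3 (2.87-fold, and 1.53 without its top cell), Ifit2 (2.24-fold), Ifi209 (2.27-fold), Cmpk2 and Usp18 (3.27-fold each, from 20 UMIs against 4). Isg15, a ubiquitin-like modifier, had 683 CPM against 616, a ratio of 1.11, and Bst2, the tether that retains virus particles, 740 against 462, a ratio of 1.60; neither was called.

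The same list had 7 of 13 genes higher in cDC1, 0 called higher, 1 lower (Oasl2) and a median of 0.04, beside 2.75% of all genes called lower. Without the top cell of each gene 3 of 13 were higher and 3 were called lower (Ifit1, Oasl2 and Rsad2), with a median of -0.21. With at least 3 marker UMIs 2 of 8 were higher and 2 were called lower (Ifi47 and Isg15), with a median of -0.11. In monocytic phagocytes 18 of 18 were higher and 8 called, with a median of 0.83 beside 3.38% of all genes called higher. In Ccr7 dendritic cells 13 of 16 were higher and 5 called, with a median of 0.48 beside 5.09%. The cDC1 were thus the group of the 4 with the smallest median. Differences between these groups were not tested, and all 4 come from the same pair of libraries.

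**Figure D4:**
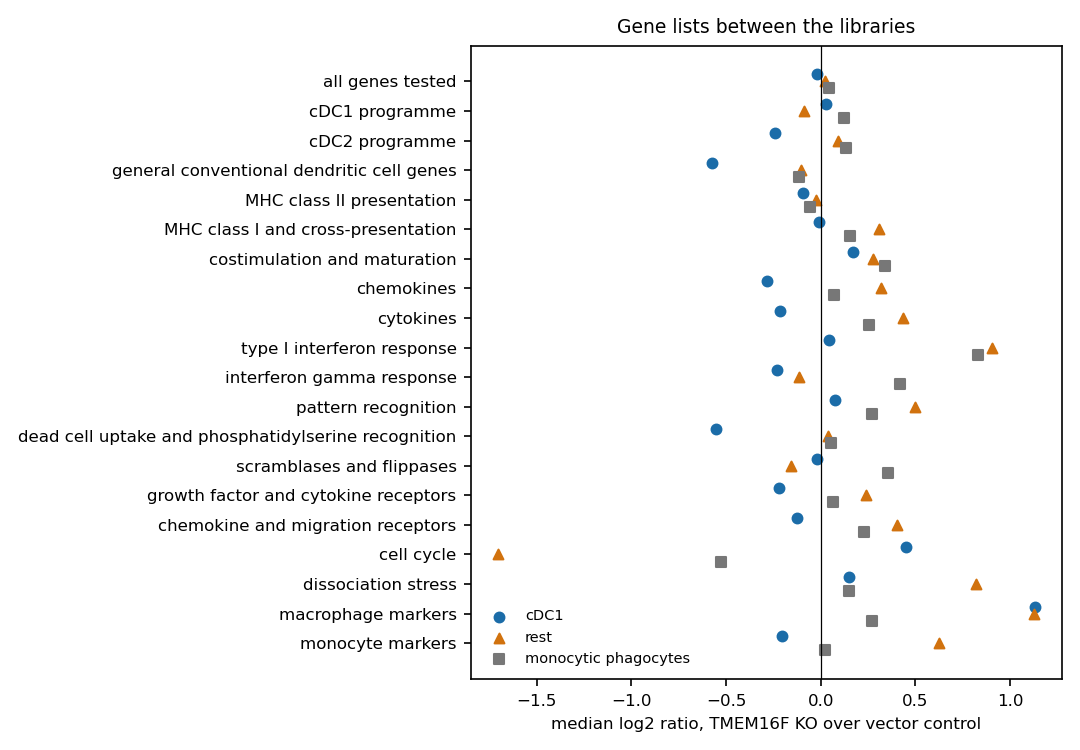
Median log2 ratio of TMEM16F KO over vector control for each gene list in cDC1, the remaining members and monocytic phagocytes. The type I interferon list lies at 0.91 in the remaining members, 0.83 in monocytic phagocytes and 0.04 in cDC1, and the macrophage list at 1.13 in both member subsets.

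Promoters of interferon genes often hold the interferon-stimulated response element, the site read by Irf and Stat factors. Its core was searched as GAAA, 2 bases of any kind and GAAA, on both strands, in windows of 300 bases around gene starts (RefSeq, GRCm38.p6). It was found for 6 of 13 type I interferon genes with a window (46.2%) and for 2 of 14 cDC1 genes (14.3%). Of all 27025 genes searched, 1079 held it (3.99%), and windows of 1 chromosome were left out of the search. The AP-1 motif TGANTCA was found for 3 of 13 (23.1%), 1 of 14 (7.14%) and 2425 of 27025 (8.97%). A match is a description and not a shown site. Shown here are the window of Ifit3, called higher in the remaining members of TMEM16F KO (chr19:34583279-34583578, plus strand), and those of Bst2 (chr8:71537423-71537722, minus strand) and Isg15 (chr4:156200769-156201068, minus strand), which were measured well but not called. Each is written 5′ to 3′ in the direction of the gene, with matches in capitals, which overlap in Bst2 and Isg15.
Ifit3: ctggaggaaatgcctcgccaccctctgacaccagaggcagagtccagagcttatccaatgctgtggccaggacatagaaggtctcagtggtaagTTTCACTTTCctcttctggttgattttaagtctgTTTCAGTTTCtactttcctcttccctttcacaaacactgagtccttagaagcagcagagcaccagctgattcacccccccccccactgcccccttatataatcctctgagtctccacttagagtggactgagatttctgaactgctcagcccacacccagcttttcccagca
Bst2: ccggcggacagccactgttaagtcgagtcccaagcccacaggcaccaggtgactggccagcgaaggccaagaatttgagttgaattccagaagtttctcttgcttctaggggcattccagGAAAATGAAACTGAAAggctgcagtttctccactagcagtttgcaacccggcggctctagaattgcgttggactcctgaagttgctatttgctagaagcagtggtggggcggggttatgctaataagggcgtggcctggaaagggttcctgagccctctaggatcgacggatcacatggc
Isg15: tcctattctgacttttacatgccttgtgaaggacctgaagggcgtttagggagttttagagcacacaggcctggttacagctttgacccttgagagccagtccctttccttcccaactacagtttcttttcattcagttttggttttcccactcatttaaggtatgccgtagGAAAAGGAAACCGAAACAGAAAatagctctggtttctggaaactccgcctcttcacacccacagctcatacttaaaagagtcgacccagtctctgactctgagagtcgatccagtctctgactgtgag
The first match began 156, 130 and 78 bases before the start of the gene. Irf7, Ifi47, Ifi209, Ifit2 and Cmpk2, which were called, hold no match in their windows, which says only that these letters are not there. Usp18 was not searched. Ifit3 was thus the sole gene with a match among the 6 called genes that have a window.

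Chemokines were mixed in the remaining members. Ccl5 (2.69-fold), Ccl2 (4.73-fold), Ccl6 (3.43-fold) and Cxcl2 (2.54-fold) were called higher in TMEM16F KO and Ccl17 lower, of 12 tested. The shares over all genes were 5.19% higher and 2.03% lower. Ccl2, the ligand of Ccr2, had 53.0% of its TMEM16F KO UMIs in 1 cell and a ratio of 2.40 without it, and Cxcl2, which attracts neutrophils, 1.46 without its top cell. Ccl6 and Cxcl2 stood at 326 and 1709 CPM in T cells of TMEM16F KO, and at 542 and 1625 in the remaining members, so Cxcl2 was below the T cell level. With at least 3 marker UMIs Ccl5, Ccl2 and Cxcl2 were not called.

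Other genes named by rule as higher in the remaining members of TMEM16F KO were Ctnna1, a catenin of cell junctions (4.69-fold, 1.99 to 13.5), Creb3, a membrane-bound factor of secretory stress (5.4-fold, 1.92 to 21.0), Nfat5, which responds to salt (4.58-fold, 1.79 to 15.0), and Fbrsl1 (14.4-fold, 2.33 to 594, from 22 UMIs against 1). Without their top cells the first 3 reached 4.27, 4.99 and 3.57. Gbp2 (2.80-fold) and Gbp7 (4.80-fold, 1.44 to 25), guanylate-binding proteins, were higher, while Iigp1 (3.06-fold) and Irgm2 (2.68-fold), GTPases of the same interferon gamma list, were lower, with 79.2% and 64.3% of their vector control UMIs in 1 cell. That list had 2 of 12 called in each direction, beside 5.19% of all genes called higher and 2.03% lower, and a median of -0.12. Gbp2 and Gbp7 were still called without the top cell of each gene, 0 were called lower and the median turned to 0.48.

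Lower in the remaining members of TMEM16F KO was Qpct, at 29.9 CPM against 133, 4.45-fold (2.18 to 9.78), in 5 of 51 and 17 of 27 cells, as it was in cDC1. It was 4.00-fold lower without its top cell and 12.1-fold with at least 3 marker UMIs. Itgax had 27.2 CPM against 83.2, 3.06-fold (1.37 to 7.31) lower, and 2.73-fold without its top cell. The mitochondrial enzymes Gatm, of creatine synthesis (2.59-fold), and Idh3a, of the citric acid cycle (3.06-fold), Exosc7, of the RNA exosome (3.93-fold), Ddt (2.36-fold), Stt3a, of glycosylation (3.06-fold), and Snhg3 (2.73-fold) completed the set.

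**Figure D5:**
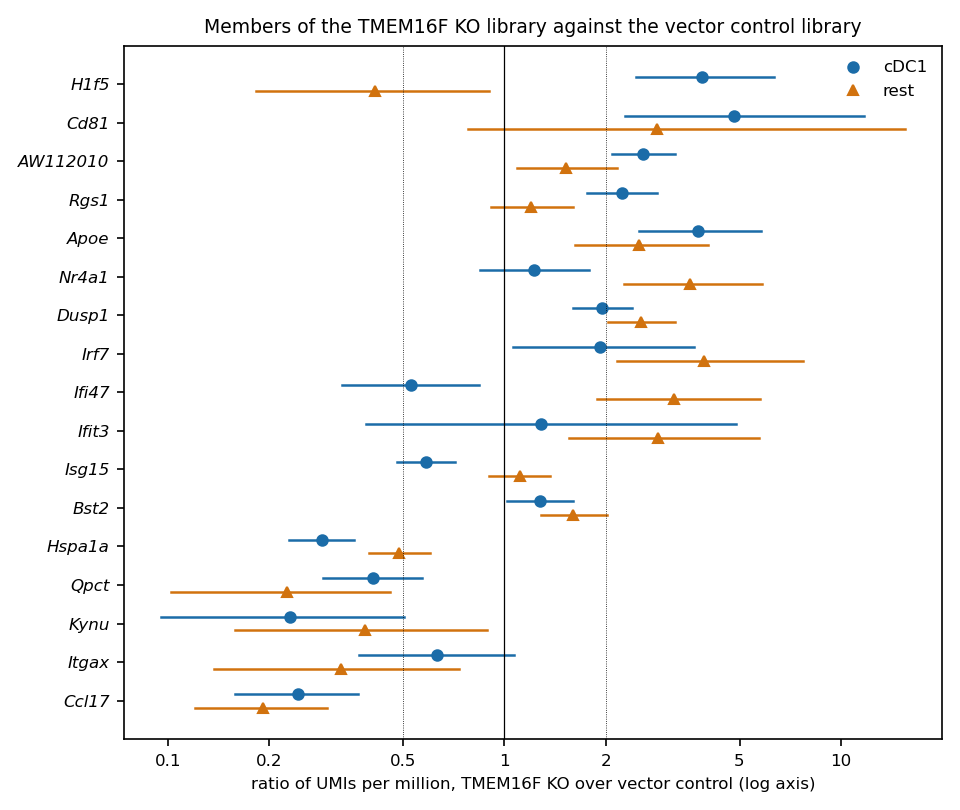
Ratio of TMEM16F KO over vector control in cDC1 and in the remaining members for 17 genes, on a log axis, with exact 95% intervals that cover counting error only. Ccl17 and Qpct lie below 1 in both subsets, and Nr4a1, Irf7 and Ifi47 above 2 in the remaining members.

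Few antigen presentation genes were called between libraries. Of 11 class II genes, 1 was called in each subset (H2-DMb2 in cDC1 and H2-Ob in the remaining members, 2.92-fold, both lower in TMEM16F KO), with medians of -0.09 and -0.02, beside 2.75% and 2.03% of all genes called lower. Of 13 costimulation and maturation genes, 3 were called higher and 1 lower in cDC1, and 0 and 1 in the remaining members. Over all genes, 3.07% were called higher in cDC1 and 5.19% in the remaining members. None of these class II and costimulation genes was called in either subset without its top cell. Of 19 cell cycle genes in cDC1, 2 were called higher (Nusap1, 7.69-fold, and Ube2c, 3.62-fold) and 1 lower (Mcm6, 2.95-fold), with a median of 0.45. In the remaining members 4 could be tested, and the 2 called lower, Stmn1 and Pclaf, had 93.1% and 100% of their vector control UMIs in 1 cell. Their median was -1.70, and 0.44 without the top cell, with 0 called.

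Macrophage genes were higher in the members of TMEM16F KO. In cDC1, 6 of 6 tested were higher and 3 called (Apoe, Spp1 and Trem2), beside 3.07% of all genes called higher. In the remaining members these were 7 of 7 and 4 (Apoe, Arg1, Mrc1 and Spp1), beside 5.19%, with medians of 1.13 in both subsets. Without the top cell of each gene, 1 was called in cDC1 (Apoe) and 2 in the remaining members (Apoe and Mrc1), with medians of 0.43 and 0.55. Apoe, a lipid carrier, had 281 CPM against 75 in cDC1 and 272 against 108 in the remaining members, and stayed called without the top cell, at 2.89 and 2.21. T cells had 546 and 190 CPM of Apoe, so every member level of Apoe lay below that of the T cells of its library.

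Mrc1, the mannose receptor of macrophages, lay above the T cell level in the remaining members of TMEM16F KO. It had 33 UMIs in 13 of 51 cells there and 2 UMIs in 2 of 27 cells in vector control, 89.8 against 8.32 CPM, a ratio of 10.8 (2.76 to 92.8), beside 34.7 and 21.1 CPM in T cells and 109 and 77.5 in monocytic phagocytes. It was called without its top cell, at 7.68, and with at least 3 marker UMIs, at 10.4. In cDC1 it had 18.5 and 10.3 CPM and was not called. Trem2, a lipid receptor of macrophages, had 88.8 CPM in cDC1 of TMEM16F KO against 23.3 in vector control, beside 83.4 and 51.0 in T cells, with 26 of its 48 UMIs in 1 cell and a ratio of 1.86 without the top cell. Arg1 had 185 against 83.2 CPM in the remaining members, beside 397 and 278 in T cells. What part of these levels came from free RNA or from macrophages was not tested.

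Spp1 had 2345 CPM against 476 in cDC1, with 62.0% of the TMEM16F KO UMIs in 1 cell and a ratio of 1.99 without it, and 890 against 250 in the remaining members, where T cells had 2118 and 1092. Summed over the macrophage list, cDC1 had 1000 CPM in vector control and 3265 in TMEM16F KO, the latter 1606 without 1 cell, the remaining members 841 and 1933, and T cells 1751 and 3369. In TMEM16F KO the cDC1 with 2 marker UMIs (12 cells) stood at 7330 and those with at least 3 (23 cells) at 1635. With at least 3 marker UMIs the median of the list in cDC1 was -0.47. Gpnmb was at 0 in the remaining members of both libraries and in cDC1 of vector control.

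Genes tied to the deleted protein itself gave little. Ano6 had 5 UMIs in cDC1 of TMEM16F KO against 7 in vector control, and 10 against 2 in the remaining members, too few for a call, in host cells that keep the gene. Of other scramblases and flippases, 5 could be tested in cDC1 with 0 called, and 6 in the remaining members with 1 called higher, the flippase gene Atp8b4 (3.43-fold, 1.16 to 13.8), beside 5.19% of all genes. Of 8 genes of dead cell uptake and phosphatidylserine recognition in cDC1, 1 was called, Cd36, a scavenger receptor, 2.01-fold (1.02 to 4.07) lower in TMEM16F KO, beside 2.75% of all genes. In the remaining members 1 of 7 was called higher, the endocytic receptor Lrp1 (4.14-fold, 1.22 to 21.9). No gene of either list was called in either subset without its top cell.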

How the data were processed

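Single-cell 3′ libraries (10x Genomics, v3.1 chemistry per the labels' protocols) were analysed from the deposited matrices of raw UMI counts per gene and barcode, with Cell Ranger 8.0.0 named as the software, per the file headers. The submitters' processing notes name mm10 and Seurat 3.1.1. Each matrix holds 34290 genes (34247 symbols, repeated symbols summed), of which 32236 identifiers matched the reference names. Counts of the member cells were summed per library and subset and scaled to CPM with Python 3.11.15, numpy 2.4.6, scipy 1.17.1 and pandas 2.3.3. Genes with at least 20 UMIs were compared, leaving out the 13 genes of the rule, and log2 ratios had 0.5 counts added. No test between groups was possible with 1 library per group, and a called gene is one past 2-fold whose 95% interval excludes 1.

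The members, the 27 gene lists and the comparisons were chosen with earlier results of these data known. The text names, in each direction, the 12 called genes with the largest smaller ratio for cDC1 against the others, 6 for each comparison population, and 8 between libraries with the interval farthest from 1, UMIs in at least 5 cells and no cell over 25% of them, besides any listed gene; 1 gene so chosen is not reported here. Doublets were scored with scanpy 1.11.5. The automatic threshold marked 0 barcodes in either library and was replaced by a rate of 0.8% per 1000 barcodes (236 and 334 marked), and no barcode was removed in the main analysis. The scripts were tested on simulated counts: at 3-fold, 87 of 96 changed genes were recovered for cDC1 and 90 of 96 for the remaining members, and 1.85% and 1.99% of unchanged genes were called. Those counts carried no spread between cells.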

Additional observations from a re-analysis of the deposited data

Results flagged for a closer look

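Clec4e, a lectin that senses cell damage and fungi, pointed opposite ways in the subsets. The log2 ratio of TMEM16F KO over vector control was -1.15 in cDC1 and 2.42 in the remaining members, and that of cDC1 over the remaining members was 2.42 in vector control and -1.16 in TMEM16F KO. Its counts were 21 UMIs in 5 cDC1 of vector control, 13 in 4 of TMEM16F KO, 2 in 2 remaining members of vector control and 20 in 8 of TMEM16F KO. Neither interval between libraries excluded 1 once the top cell was left out, with ratios of 0.735 (0.309 to 1.76) in cDC1 and 3.66 (0.8 to 34.0) in the remaining members.

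The linker histone H1f5 had a log2 ratio of TMEM16F KO over vector control of 1.92 in cDC1 and -1.25 in the remaining members, and Tnfsf9, the costimulatory ligand of 4-1BB, 1.12 and -1.29. In the remaining members of vector control 13 of 19 H1f5 UMIs were in 1 cell, and without the top cell the log2 ratio was 0.22, a ratio of 1.21 (0.421 to 3.94), so the opposite direction of H1f5 rested on that cell. Tnfsf9 was called in neither subset without the top cell, with ratios of 1.50 and 0.578. Egr1, an immediate early factor, had a log2 ratio of cDC1 over the remaining members of 1.11 in vector control and -1.06 in TMEM16F KO, where 1 remaining member held 31 of 68 UMIs. All were marked because intervals on both sides excluded 1 in opposite directions. The differences between subsets and between libraries were not tested, since each group is 1 library and counting intervals leave out the spread between cells.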

How the results depend on the processing

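Alternatives changed the rule (at least 3 marker UMIs, cDC1 from 2 UMIs, C1q under 10 per 10000, at least 2000 UMIs per barcode, filters on genes, mitochondrial UMIs and doublet scores), the scaling (without mitochondrial, ribosomal and haemoglobin genes, mean over cells) and the gene minimum; leaving out the top cell within libraries was added after seeing the data. Of alternative values for the counts and shares, 117 stayed close to the reported value and 24 moved. For single genes and lists, 1477 stayed, 44 moved and 4 reversed. A count stayed if it changed by less than a set factor, and any other value if it lay within the interval of the main analysis. Wide intervals make staying easy, and a gene that lost its call, such as Rgs1 without its top cell, can count as stayed. Reversed log2 ratios were those of Clec4n (-0.074) between libraries in cDC1 with at least 3 marker UMIs, where the macrophage list median was -0.47, Rsad2 in cDC1 over the remaining members of vector control without its top cell (0.30), and the cytokine list median between libraries in cDC1 as a mean over cells (0.32). These counts cover genes named by rule, and list medians under settings other than the top cell and the gene minimum. Beyond them, leaving out the top cell between libraries turned H1f5 (-1.25 to 0.22), the cell cycle median (-1.70 to 0.44) and the interferon gamma median (-0.12 to 0.48) in the remaining members, among others. Ccl2 in cDC1 turned from -0.24, not called, to 1.06, called, where only a vector control cell was left out. With at least 3 marker UMIs Ccl2 in cDC1 was called lower in TMEM16F KO (-1.22). The cause was not tested.

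Counts of called genes followed the minimum and the top cell. With a minimum of 1 UMI, of 50 UMIs and without the top cell, 233, 61 and 47 genes were higher and 235, 31 and 46 lower in TMEM16F KO cDC1. In the remaining members 65 were higher at 50 UMIs, 85 without the top cell and 96 with at least 3 marker UMIs, and 151, 15 and 28 were lower at 1 UMI, at 50 UMIs and without the top cell. For cDC1 over the remaining members, 30 and 40 were higher and 23 and 25 lower at 50 UMIs and without the top cell; for members over Ccr7 dendritic cells 26 and 25, and 74 and 79; over monocytic phagocytes 160 and 146 were higher. Thinned to 2000 UMIs, cDC1 were 17.4% of the members in vector control and 22.2% in TMEM16F KO, the reverse of the order without thinning.

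No paired analysis was possible because each group is 1 library. Subsets of 23 to 51 cells limit every value: many calls rest on 1 cell, genes under 20 UMIs were not compared, and library, mouse and genotype cannot be told apart.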

Other observations

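Ifnb1, which encodes interferon beta, was chosen after its values were seen. In vector control it had 58 UMIs in 3 of 27 remaining members (241 CPM, 39 of them in 1 cell), 14 UMIs in 3 cDC1 (36.2 CPM), 15 in 1 Ccr7 dendritic cell (57.5 CPM), 50 in 21 monocytic phagocytes (11.9 CPM) and 8.10 CPM in T cells. In TMEM16F KO the remaining members had 16 UMIs in 4 of 51 cells (43.6 CPM), cDC1 9 in 3 cells (16.6 CPM), Ccr7 dendritic cells 3 in 3 cells (7.32 CPM), monocytic phagocytes 74 in 22 cells (14.9 CPM) and T cells 4.03 CPM. The members held more Ifnb1 in CPM than T cells in both libraries, from 6 cells of vector control and 7 of TMEM16F KO.

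Klrd1, the CD94 chain of NK receptors, was likewise chosen after its values were seen. It was found in 18 of 27 and 35 of 51 remaining members (653 and 591 CPM) and in 15 of 23 and 18 of 35 cDC1 (290 and 168 CPM). Monocytic phagocytes had 50.8 and 169 CPM, Ccr7 dendritic cells 261 and 346, and T cells 798 and 1005. The member levels lay between those of monocytic phagocytes and T cells in vector control, and in TMEM16F KO the cDC1 stood at the monocytic level. What part of it came from free RNA was not tested.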
